A study of Mus musculus with 8 samples.

Results

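Cells keep R-loops in check with a set of enzymes that digest, unwind or relieve them, and with the Fanconi and BRCA proteins that protect replication forks where they persist. The genes described here are 29 such genes, and the question is whether the genes that encode this machinery themselves carried R-loop peaks in young and aged mouse haematopoietic stem cells. The members are a fixed list of gene names, split into RNase H, helicase, topoisomerase, Fanconi/BRCA and transcription termination genes. A peak belonged to a gene when its summit, the base of highest signal, lay inside the gene's bounds in the GRCm38.p6 RefSeq table extended by 1 kb. All 29 genes were found among the 34614 protein-coding and lncRNA genes of that table, and they held 27 of the 40207 peaks of the series, 14 young and 13 aged.

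The study sorted lineage-negative, Sca1-positive, cKit-positive, CD34-negative cells from mouse bone marrow and profiled DNA:RNA hybrids with the S9.6 antibody by ssDRIP-seq, a strand-specific form of DNA:RNA immunoprecipitation sequencing. Young and aged cells were each given 2 immunoprecipitated libraries (S9.6) and 2 input libraries (no antibody), 8 samples in all, and no treatment. Both ages had the same sort and protocol, and the labels give no strain, sex, age in months or number of pooled animals. The processed files used here are 4 peak lists, one per strand for young and one per strand for aged cells, in which replicates are combined. The lists give no value per replicate, so the ages could not be tested against each other. The intervals given are binomial and cover counting error only.

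An R-loop is a hybrid of a transcript with its template DNA that leaves the other DNA strand single. RNase H enzymes cut the RNA of the hybrid, helicases unwind it, and topoisomerases relieve the torsion behind the RNA polymerase that favours its formation. The Fanconi pathway repairs DNA crosslinks and acts where replication meets R-loops, and its loss is known above all for bone marrow failure with exhaustion of stem cells.

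The files give peaks and not expression, so the sorted cell type could not be checked by marker levels. Of 8 genes that mark these stem cells, 4 (Kit, Slamf1, Mecom and Meis1) carried peaks in both ages, and Ly6a, Procr and Hlf were among those without a peak. Of 9 lineage genes none carried a peak in either age. The exact intervals, 15.7 to 84.3% and 0 to 33.6%, both hold the shares of all genes with a peak (19.8% in young and 16.1% in aged), so these counts say nothing about cell identity. The 4 lists held between 8088 and 12058 peaks, with a median of 8 summit reads in each. Read totals are not in these lists. The genome-wide background recovered from the peaks, was 0.823 and 0.825 reads per position in the young lists and 0.689 and 0.69 in the aged lists. The peak names carry the word normalized, which the labels do not define, so these reads may be counts after a scaling or thinning step and need not follow the sequencing depth. At that background the fewest reads that made a peak were 6 in young and 5 in aged, so a peak was called from fewer reads in the aged lists.

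Peaks of either age lay in 16 of the 29 R-loop genes, and none of these peaks held more than 12 reads at its summit. Among all 34614 genes 9702 carried a peak of either age, and among 21887 protein-coding genes 7281 did. No interval was computed for the 16 genes, and these shares do not allow for gene length, which is described below. A young peak lay in 9 of the 29 genes, 31% (95% exact interval 15.3 to 50.8), and an aged peak in 10, 34.5% (17.9 to 54.3). Among all 34614 genes 19.8% carried a young and 16.1% an aged peak, and among protein-coding genes alone 23.8% and 20% did. The protein-coding background thus lay inside the interval of the members in each age taken alone, while the share of all genes lay just below the aged interval. Dhx9, Wrn and Top1 carried peaks in both ages, where 7.88% of all genes did. Aqr, Blm, Fancc, Fanci, Fancm and Xrn2 carried a young peak only (background 12%), and Rnaseh2b, Ddx5, Ddx21, Top3b, Fancd2, Brca2 and Bard1 an aged peak only (background 8.19%). The other 13 genes carried none (background 72%). These backgrounds are of all 34614 genes, and the member counts were given no interval. Of 21887 protein-coding genes, 2314 carried peaks in both ages, 2904 in young only, 2063 in aged only and 14606 in neither. The presence of a peak in a single age was not tested and shows no difference between the ages.

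**Figure D1:**
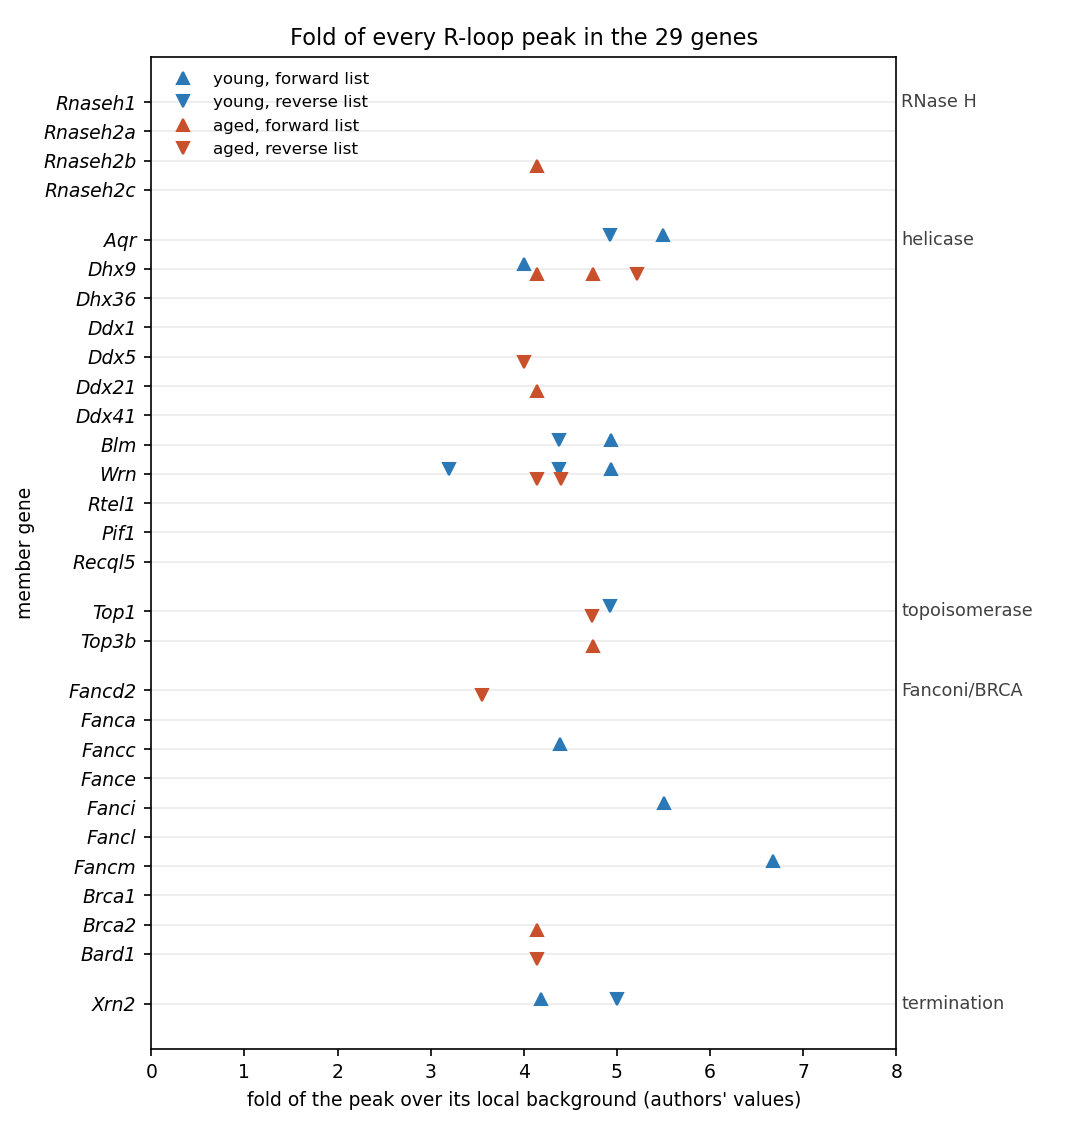
Fold over the local background of each of the 27 peaks (horizontal axis, the authors' values, no unit) in the 29 genes (rows, grouped by class), with young peaks in blue, aged peaks in red and the triangle pointing up for the forward and down for the reverse list; rows without a symbol are genes without a peak. All peaks lie between 3.2 and 6.67, with the highest at Fancm in young.

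The 1 member peak that touched a listed promoter was at Brca2, which encodes a mediator of homologous recombination and is itself a Fanconi gene. RefSeq promoter windows, 250 bases before to 50 bases after a start, were given for 24 of the 29 genes (26 windows). The aged forward peak at Brca2 ran over chromosome 5, 150522161 to 150522443, with its summit at 150522405. That summit lies 108 bp inside the lower bound of the gene and 216 bp before the listed start at 150522621. The 250 bases before that start, on the forward strand of GRCm38.p6 at chr5:150522371-150522620, are shown because this is the only stretch of a member promoter under a peak, with the 73 bases under the aged peak in capitals.
Brca2: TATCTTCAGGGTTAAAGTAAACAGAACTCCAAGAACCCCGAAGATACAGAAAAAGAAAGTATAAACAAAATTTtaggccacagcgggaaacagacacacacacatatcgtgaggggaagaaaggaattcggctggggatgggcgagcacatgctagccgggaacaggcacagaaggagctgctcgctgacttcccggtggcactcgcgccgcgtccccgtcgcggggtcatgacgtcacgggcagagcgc
The summit is base 35 of this stretch. The 73 bases of the stretch under the peak had a GC content of 31.5% and the whole stretch 54.4%. The rest of the peak lies before the stretch, and its bases were not available. The peak had a fold of 4.14, with 6 reads over the genome background of 0.689 and a −log10 q of 2.03. No young peak lay at Brca2, and the nearest young summit was 30.9 kb from the gene. Of all 32851 promoter windows in the table, 0.377% were touched by an aged and 0.487% by a young peak, so touched promoters were rare in general, and no young peak touched a member window. The composition of the member promoters was set beside that of protein-coding genes without an interval and was not tested. Taking the most upstream window of each gene, the median GC content was 57.5% (45.7 to 66) over 24 members and 56.3% over 17492 protein-coding genes. The run GGGG stood on the strand of the gene in 15 of the 24 (62.5%) and in 71% of all, and the run CCCC, which is GGGG on the other strand, in 18 (75%) and in 69.2%. At least 1 of the 2 runs stood in each of the 24 windows and in 87.2% of all.

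Of the 4 RNase H genes, only Rnaseh2b carried a peak, in aged, which is 25% (0.631 to 80.6) against 16.1% of all genes. RNase H1 is a single protein, and RNase H2 is a complex of the catalytic subunit RNASEH2A with RNASEH2B and RNASEH2C, which also removes single ribonucleotides from DNA. The Rnaseh2b peak was found in the aged forward list (chromosome 14, 62357982 to 62358270) in the interior of the gene, with a fold of 4.14, 6 reads and a −log10 q of 2.03. The young lists held nothing closer than 63.9 kb to Rnaseh2b. Rnaseh1, which lies on chromosome 12 and spans 9.99 kb, had its nearest summits 30.4 kb away in young and 15.6 kb away in aged. Rnaseh2a (13 kb long) had them at 5.01 kb and 43.2 kb, and Rnaseh2c at 138 and 46.6 kb. Rnaseh2c spans 1.09 kb and is the shortest of the 29 genes. Rnaseh2b is the longest of the 4, with 40.9 kb. Of protein-coding genes of 20 to 50 kb 19.4% carried an aged peak, and of those up to 20 kb 7.18%.

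Of the 12 helicase genes, 4 carried a young and 4 an aged peak, with 8 and 7 peaks. Each count is 33.3% (9.92 to 65.1), an interval that holds the 19.8% and 16.1% of all genes. Dhx9, which encodes an RNA helicase that binds and unwinds R-loops, held 1 young and 3 aged peaks. The young peak was in the forward list (chromosome 1, 153459973 to 153460207), with a fold of 4 and 11 reads over a raised local background of 2 reads. In aged the reverse-list peak (153456215 to 153456734) had a fold of 5.22 and 8 reads over 0.725, and the 2 forward-list peaks, with summits at 153463789 and 153464267, had folds of 4.74 and 4.14 with 7 and 6 reads. The young summit thus held the most reads and the lowest fold of the 4. Dhx9 is on the minus strand, and the aged reverse-list summit lay 676 bp inside the 3′ bound of the gene. The closest young and aged summits were 3.68 kb apart, so no site was seen in both ages.

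Wrn and Blm encode RecQ helicases that resolve branched DNA, and Wrn held more peaks than any other member. Its 3 young peaks were 2 reverse-list peaks with summits at 33330293 and 33331678 on chromosome 8 and a forward-list peak at 33361529. Their folds were 4.38, 3.2 and 4.94, with 7, 7 and 8 reads. The 2 aged peaks were both in the reverse list, with summits at 33304702 and 33343042, folds of 4.4 and 4.14, and 10 and 6 reads. The aged and young folds thus overlapped, and the closest summits of the 2 ages were 11.4 kb apart. Wrn spans 151 kb, the second longest of the 29, and of protein-coding genes over 100 kb 77.9% carried a young and 66.7% an aged peak. Blm held 2 young peaks in its interior on chromosome 7, in the reverse list (80501207 to 80501390, fold 4.38, 7 reads) and in the forward list (80505214 to 80505403, fold 4.94, 8 reads). The nearest aged summit was 162 kb from Blm.

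Aqr encodes Aquarius, a helicase of the spliceosome whose loss raises R-loop levels. It held 2 young peaks on chromosome 2 and no aged peak. The forward-list peak (114100538 to 114100787) had a fold of 5.49, 9 reads and a −log10 q of 4.03, and its summit lay 514 bp past the 3′ bound of this minus-strand gene. The reverse-list peak (114132966 to 114133178) had a fold of 4.93 and 8 reads and lay in the gene interior. The nearest aged summit was 358 kb from Aqr, and that of Ddx41 lay at a similar 352 kb. The usual spacing of aged summits was not computed. Among the DEAD-box genes, Ddx5, whose product is an RNA helicase of splicing and transcription, held 1 aged peak in the reverse list (chromosome 11, 106784408 to 106784589, fold 4, 7 reads over 1). Ddx21, which encodes a nucleolar helicase that unwinds R-loops, held 1 aged forward-list peak (chromosome 10, 62579213 to 62579399, fold 4.14, 6 reads).

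The Ddx21 peak is the member peak nearest to the limit of the gene window. Its summit lay 949 bp past the 3′ bound, inside the 1 kb extension, and also in the window of the neighbouring gene Kifbp, so it cannot be given to Ddx21 alone. Just outside the window lay the young summit nearest to Pif1, a helicase that unwinds G-quadruplexes, at 1.31 kb from the gene, and that nearest to the G-quadruplex helicase gene Dhx36, at 2.02 kb. Ddx1, Ddx41, Rtel1 and Recql5 had no peak either. DDX41 is a helicase whose mutation predisposes to myeloid leukaemia, and RTEL1 and RECQL5 act at telomeres and at transcribing polymerases. Their nearest summits of either age lay 11.1 kb (Ddx1, young), 41.6 kb (Ddx41, young), 12.5 kb (Rtel1, aged) and 83.5 kb (Recql5, aged) from the gene.

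Both topoisomerase genes carried an aged peak, and Top1 a young one too. With 2 genes the aged share has an exact interval of 15.8 to 100%, which holds the 16.1% of all genes and the 20% of protein-coding genes. TOP1 removes the supercoils that build up around a transcribing polymerase, and TOP3B relaxes DNA and also acts on RNA. Top1 had a reverse-list peak in each age on chromosome 2. The young peak (160677138 to 160677414) had a fold of 4.93 and 8 reads, and the aged peak (160692569 to 160692828) 4.73 and 7 reads. They are alike in size but lie 15.3 kb apart in the interior of a gene of 76.9 kb. The Top3b peak was in the aged forward list (chromosome 16, 16882282 to 16882464), with a fold of 4.74 and 7 reads. The nearest young summit was 106 kb from Top3b.

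Of the 10 Fanconi and BRCA genes, 3 carried a young and 3 other genes an aged peak. Each count is 30% (6.67 to 65.2), an interval that holds the 19.8% and 16.1% of all genes with a young or an aged peak, and the 12% and 8.19% with a peak in that age alone. The 3 young peaks were all in the forward list and included the strongest of all 27. Fancm encodes the DNA translocase that anchors the Fanconi core complex on DNA. Its young peak (chromosome 12, 65094782 to 65095107) had a fold of 6.67, 12 reads over 0.949 and a −log10 q of 6.24. It was the only member peak with a −log10 q of at least 5, a level that 3.62% of all genes reached in young and 4.26% in aged, and it stood among the top 6.73% of all young peaks by −log10 p. The nearest aged summit was 27.7 kb from Fancm. Fanci, which encodes the partner of FANCD2 in the central ubiquitinated complex, had a young peak (chromosome 7, 79437098 to 79437504) with a fold of 5.5, 10 reads and a −log10 q of 4.23. Fancc, a core complex gene and with 196 kb the longest member, had a young peak (chromosome 13, 63450148 to 63450543) with a fold of 4.39 and 7 reads.

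The aged peaks of this class had fewer reads, 5 or 6 against 7 to 12 in young. This rests on 3 peaks in each age and was not tested. The lists also differ in the fewest reads that made a peak at the genome background, 5 in aged and 6 in young. Peaks in all genes had a median of 8 reads in both ages. Fancd2, the gene of FANCI's partner in that complex, had the weakest aged member peak, in the reverse list (chromosome 6, 113536057 to 113536261), with a fold of 3.55 and 5 reads, the fewest reads with which a peak was called, and a −log10 q of 1.32. Bard1, the gene of the BRCA1 partner in the ubiquitin ligase, had a peak in the reverse list (chromosome 1, 71054202 to 71054407) with a fold of 4.14 and 6 reads. The Brca2 peak, given above, had the same fold and number of reads. FANCD2 and FANCI work as 1 complex, and BRCA1 and BARD1 as another. In the first the partners carried a peak in different ages, and in the second only Bard1 carried one. Fanca, Fance and Fancl, which belong to the core complex, and Brca1 carried none. Fancl and Brca1 span 84.8 and 63.2 kb, and of protein-coding genes of 50 to 100 kb 45.3% carried a young and 36.4% an aged peak.

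The termination class is Xrn2, the exonuclease gene whose product degrades the RNA left behind a terminating polymerase. It held 2 young peaks in its interior on chromosome 2 and no aged peak. The reverse-list peak (147023169 to 147023375) had a fold of 5 and 9 reads over 1, and the forward-list peak (147033129 to 147033398) a fold of 4.18 and 7 reads over 0.912. The nearest aged summit was 35.1 kb from Xrn2.

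**Figure D2:**
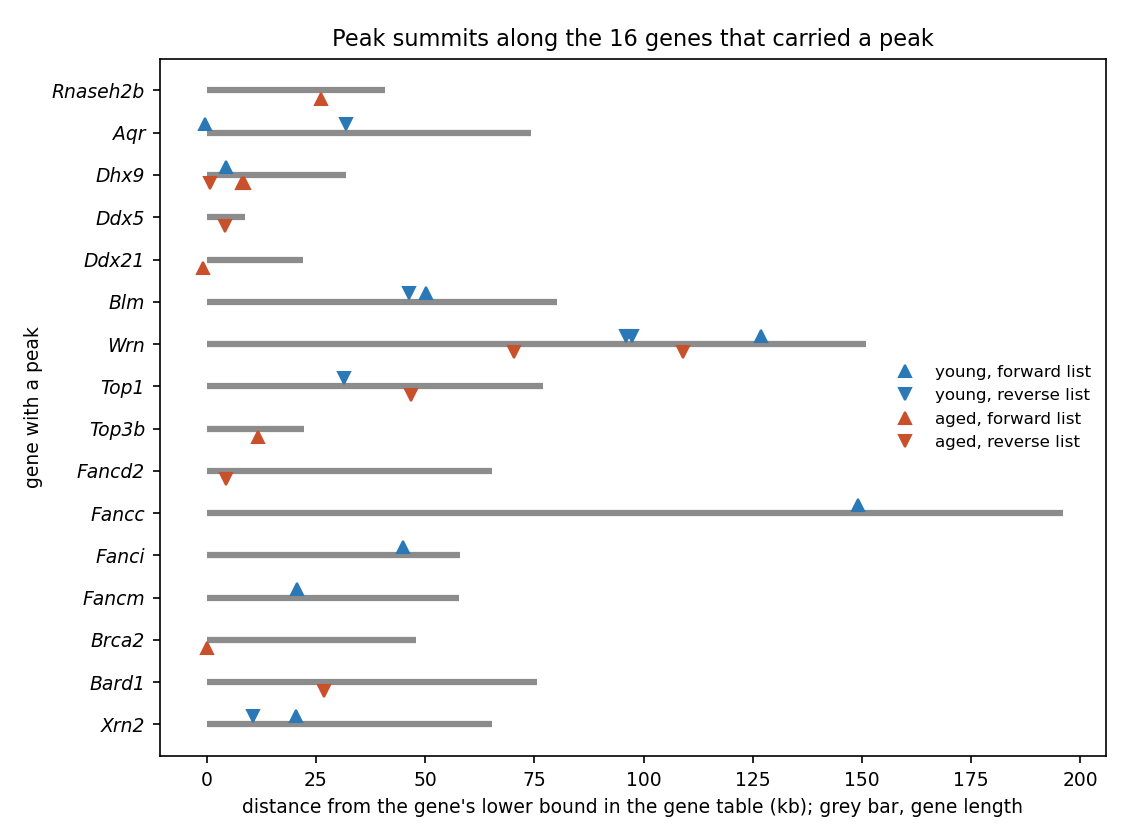
Position of the 27 summits in kb from the lower bound of each of the 16 genes with a peak (grey bars, drawn to scale, the reference direction running to the right), with colours and triangles for age and list. Young and aged summits do not coincide in any gene, and those of Dhx9, the closest, lie 3.68 kb apart.

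None of the member peaks was found in both ages. Of 14 young peaks 0 overlapped an aged peak of the same strand, which allows a share of up to 21.4%, and of 13 aged peaks 0 overlapped a young one, which allows up to 23.1%. Over all peaks in genes 7.05% of young and 9.98% of aged ones were shared, well inside those limits, so a lower share in the members was not detectable with so few peaks. No member peak overlapped a peak of the opposite strand either, where 1.49% of young and 8.8% of aged peaks in genes did. Within 1 kb of a gene bound lay 1 of the 14 young summits (Aqr) and 3 of the 13 aged summits (Dhx9, Ddx21 and Brca2), or 7.14% (95% Wilson interval 1.27 to 31.5) and 23.1% (8.18 to 50.3). Among all peaks in genes these shares were 9.71% and 12.5%, inside both intervals. Aqr, Dhx9 and Ddx21 had that summit at the 3′ bound, and Brca2 at the 5′ bound.

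Too few member peaks had a known gene strand to show or exclude a preference for one list. The labels do not say whether the forward list holds the strand of the hybrid's RNA or of its template. A gene strand was given for 11 young and 9 aged member peaks. The list was named for the strand of the gene at 5 of the 11, 45.5% (21.3 to 72), and at 5 of the 9, 55.6% (26.7 to 81.1). Over all peaks in 1 gene of known strand it was so for 46.7% in young and 53.4% in aged cells. At Top1 both ages had the list opposite to the gene, and at Blm, Aqr and Xrn2 the young peaks lay 1 on each list at separate sites.

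Member peaks were small, as most peaks of the series were. In young their summits held 7 to 12 reads, with a median of 8, and in aged 5 to 10 with a median of 6, while peaks in all genes had a median of 8 in both ages. The median fold was 4.93 in young and 4.14 in aged members, against 4.8 and 4.73 in all genes. A summit of 13 reads or more was found at 0 of 14 young and 0 of 13 aged member peaks, which allows up to 21.4% and 23.1%. Among peaks in all genes 6.57% of young and 14.1% of aged ones had such a summit, inside those limits. At the genome background stood 8 of 14 young and 10 of 13 aged member peaks, where 53.1% and 55.5% of peaks in all genes did. The other 9 member peaks, among them those of Fancm, Fanci and Xrn2 in young and Ddx5 in aged, stood over a raised local background. Reads are not molecules, since no molecular identifier is described.

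**Figure D3:**
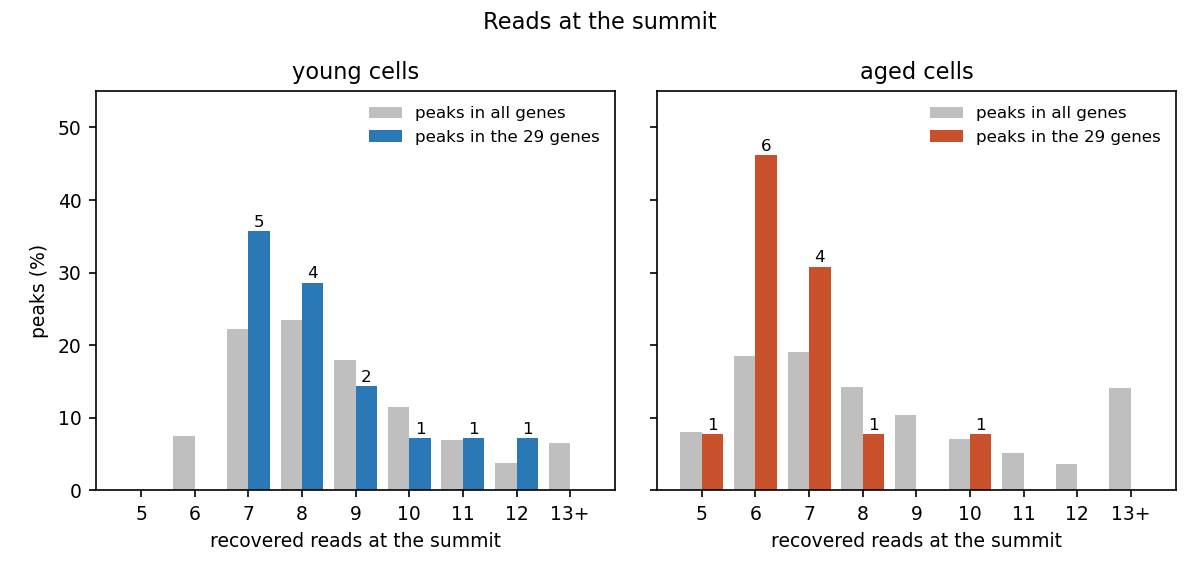
Share of peaks (vertical axis, percent) by the number of recovered reads at the summit (horizontal axis) in young (left) and aged (right) cells, in grey for peaks in all genes and in colour for the member peaks, whose numbers stand over the bars. The member peaks lie at 12 reads or fewer in young and at 10 or fewer in aged, with 6 of the 13 aged peaks at 6 reads.

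The share of genes with a peak grew with gene length, and the R-loop genes are long. Their median length was 40.9 kb against 17.2 kb for protein-coding genes, and it was 74.2 kb for members with a young peak, 44.4 kb for those with an aged peak and 29.9 kb for those without any. Of the 7 members up to 20 kb, 0 carried a young and 1 (Ddx5) an aged peak, where 7.82% and 7.18% of protein-coding genes of that length did. Of the 9 members of 20 to 50 kb, 1 carried a young peak, 11.1% (0.281 to 48.2), against 24.7% of such genes. In the same class 5 carried an aged peak, 55.6% (21.2 to 86.3), against 19.4%. These 5 were Rnaseh2b, Dhx9, Ddx21, Top3b and Brca2. This is the only one of the 8 comparisons of length class and age in which the background lay outside the interval, and with 9 genes and no replicates it was not tested. It rests on the Ddx21 summit past the gene: with bounds not extended 4 of the 9 carried an aged peak (13.7 to 78.8), against 17.9% of such genes. Of the 11 members of 50 to 100 kb, 6 carried a young and 3 an aged peak (background 45.3% and 36.4%), and of the 2 longer ones 2 and 1. Per length the members held 9.14 young and 8.49 aged peaks per Mb, and all genes 9.08 and 6.39. The member rates rest on 14 young and 13 aged peaks, were given no interval and were not tested. With each list cut to its strongest 8088 peaks, 10 young and 13 aged member peaks were left, so the order of the ages depends on list size.

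**Figure D4:**
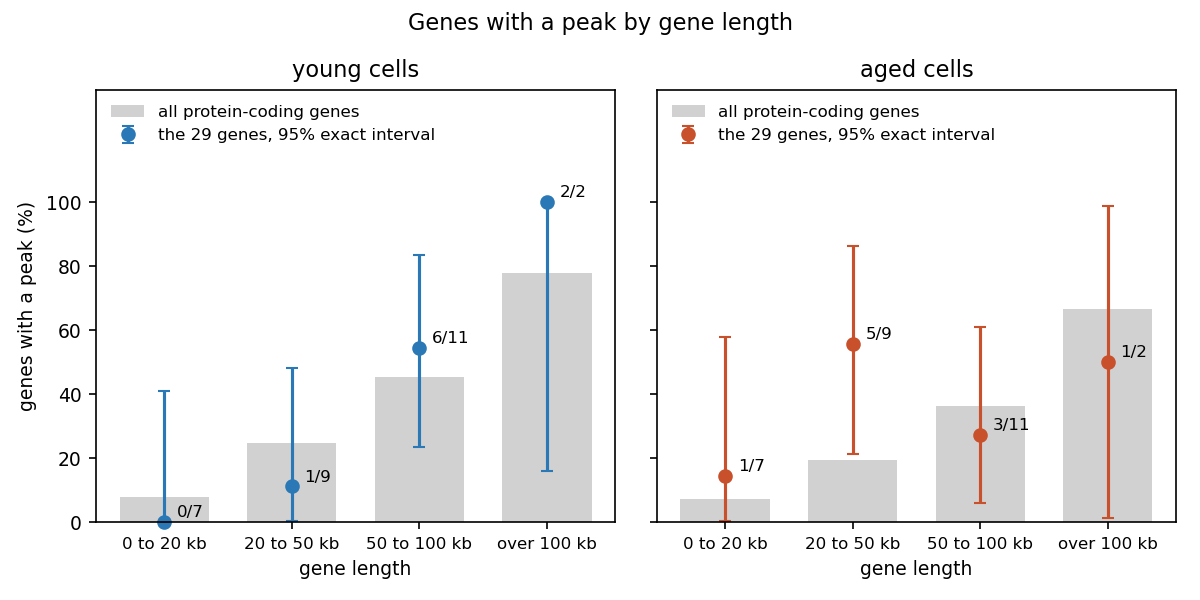
Percent of genes with a peak (vertical axis) in 4 classes of gene length (horizontal axis), in young (left) and aged (right) cells. Grey bars are all protein-coding genes, and points are the members with 95% exact intervals and the number of genes with a peak of the number in the class; only the aged members of 20 to 50 kb, 5 of 9, have an interval that lies above the bar.

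A list of 38 further genes of R-loop resolution and the Fanconi pathway was described beside the members. A young peak lay in 14 of the 38, 36.8% (21.8 to 54), and an aged peak in 7, 18.4% (7.74 to 34.3). Among all genes 19.8% and 16.1% carried one, and among protein-coding genes 23.8% and 20%. The protein-coding shares lay inside both intervals, while the young share of all genes lay just below its interval. The young and aged counts thus stood in the opposite order to those of the members (9 and 10 of 29), and neither order was tested. These genes are shorter than the members, with a median of 23 kb, but longer than protein-coding genes, with 17.2 kb. They held 13.4 young and 6.7 aged peaks per Mb, where all genes held 9.08 and 6.39. These rates rest on 16 young and 8 aged peaks, were given no interval and were not tested. The strongest peaks of this list exceeded any in the members. Top2a, the topoisomerase II gene of dividing cells, had an aged reverse-list peak (chromosome 11, 99003434 to 99003656) with a fold of 10.1, 16 reads and a −log10 q of 13.22. A forward-list peak with a fold of 5.6 and 13 reads lay over the same site, and no young peak lay in Top2a.

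Dhx15, a splicing helicase gene, had a young reverse-list peak (chromosome 5, 52184889 to 52185203) with a fold of 9.31 and 16 reads, and an aged peak of 4.73 and 7 reads at another site. Xrcc2, a gene of homologous recombination, had only a young peak (chromosome 5, 25691010 to 25691232) with a fold of 7.67 and 13 reads. Brip1, the Fanconi helicase gene, had a young peak of fold 4 and an aged peak of fold 6.51, at sites 7.82 kb apart. This list held 2 sites found in both ages, or 12.5% (3.5 to 36) of its young and 25% (7.15 to 59.1) of its aged peaks, intervals that overlap those of the members (0 to 21.5 and 0 to 22.8) and hold the 7.05% and, in aged, the 9.98% of all peaks in genes. Palb2, the gene of the protein that links BRCA1 to BRCA2, had a reverse-list peak near its 3′ bound in young (chromosome 7, 122108305 to 122108502, fold 4, 9 reads over 1.5) and in aged (122108145 to 122108503, fold 6.51, 10 reads over 0.69). The reads were close and the local background was higher in young. Top2b, named after its values were seen, had a reverse-list peak that started at base 16388519 of chromosome 14 in both ages, with folds of 6.03 in young and 4 in aged.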

How the data were processed

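The members and gene lists were chosen with earlier results of these data known. The submitters' processing notes name MACS3 3.0.0b1, Bowtie2 2.4.4, deepTools 3.5.1 and Trim Galore, with GRCm38 as build. How these were set, and how replicates were merged with their inputs, is not given in the sources used here. Each deposited line gives the fold (a ratio of signal over local background), −log10 p-value and −log10 q-value of 1 peak from the authors' caller, and a score that is 10 times the −log10 q cut to a whole number. The deposited values, which are the authors' own, were only used to describe, rank and filter peaks.

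Reads at the summit (k) and background (b) were recovered from fold = (k + 1) / (b + 1) and a Poisson upper tail. The recovered pairs returned the deposited −log10 p to within 0.1% for 100% of peaks. On simulated data made with the same formulas 100% of 4000 pileups came back, which checks the code only. A background within 1% of the lowest of its list was called the genome background. Shared peaks are those of equal strand with 1 bp or more in common. Gene bounds came from RefSeq (GRCm38.p6), and gene strands and promoters from the RefSeq promoter table of the same build, which lists 24 of the 29 genes. Exons, introns and UTRs are not in these tables and were not assigned. In the simulation 200 of 200 planted gene peaks were found.

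Every member peak is named. From the pathway list the 6 genes with the highest fold and those with a −log10 q of at least 5 are named, except 1 that is not reported here. Intervals are 95% exact (genes) or Wilson (peaks), and a share of 0 allows 3 counts. Alternatives were a −log10 q or fold of at least 5, at least 10 reads, gene bounds extended by 0 or 3 kb, the strongest 8088 peaks of each list, other overlap rules and, added after seeing the data, leaving out peaks at the genome background. The work was done in Python 3.11.15 (scipy 1.17.1, pandas 2.3.3, numpy 2.4.6, with figures in matplotlib 3.10.9).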

Additional observations from a re-analysis of the deposited data

How the results depend on the processing

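With gene bounds not extended, extended by 3 kb, or lists cut to the strongest 8088 peaks, counts of members and pathway genes with a peak stayed within 1.5 times the main values (9 to 11 members in young, 9 or 10 in aged). No member peak was shared between ages under any setting that left peaks, including reciprocal overlap of 50%, either strand and peaks extended by 1 kb. Stricter cut-offs left fewer genes. At a −log10 q of at least 5, 1 member gene (Fancm) with 1 peak was left in young and 0 with 0 peaks in aged (background 3.62% and 4.26%), so no aged share could be given, and 2 and 3 pathway genes. At a fold of at least 5, 3 member genes with 3 peaks were left in young (Aqr, Fanci, Fancm; Xrn2 fell out by rounding) and 1 with 1 peak in aged (Dhx9), and 7 and 5 pathway genes (background 8.47% and 7.38%). At 10 reads or more, 3 genes with 3 peaks were left in young (Dhx9, Fanci, Fancm) and 1 with 1 in aged (Wrn), and 5 and 3 pathway genes (background 7.42% and 5.65%). Without peaks at the genome background, chosen after seeing the data, 5 member genes with 6 peaks were left in young and 3 with 3 in aged, and 7 and 2 pathway genes (background 11.3% and 8.28%). These settings drop peaks by construction. No paired analysis was possible because the replicates of an age are combined in each list.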
